A study of Mus musculus with 11 samples.

Results

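Imprinted genes are expressed mainly from the maternal or the paternal copy, and 39 of them, chosen by symbol from the known mouse imprinted clusters, were followed here through chromatin maps of pancreatic endocrine cells. Of the 39 genes, 32 had at least 1 row in the tables. They held 40 of 31479 H3K27ac regions (17 genes), 29 of 20086 H3K27me3 regions (11 genes) and 30 of 22332 promoter windows scored for ISL1. The other 7 genes, H19, Meg3, Mirg, Peg10, Rian, Usp29 and Zrsr1, were matched to no row by symbol and were not analysed here.

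The maps came from CUT&Tag: a transposase, brought to a protein or histone mark by an antibody, cuts and tags the DNA beside it. Isl1CKO mice carried the genotype Isl1loxP/loxP;Neurod1-cre, so that Isl1, a LIM homeodomain transcription factor gene, was deleted where Neurod1-cre was active. Controls were Isl1loxP/+;Neurod1-cre littermates, so the Control cells too carried the Cre transgene and 1 floxed Isl1 allele, and both groups carried the tdTomato reporter (Ai14) used to sort the endocrine cells, on a C57BL/6 background. H3K27ac, found at active regulatory DNA, and H3K27me3, which Polycomb complexes lay down at silent genes, were each profiled at postnatal day 9 (P9) in 2 Control and 2 Isl1CKO libraries, each a pool of 3 to 4 pancreases from males and females. ISL1 itself was profiled in Control cells only, in 2 libraries at the embryonic stage E14.5 and 1 at P9. The sorted fraction holds all cells with a history of Neurod1-cre, so a change in the mix of endocrine cell types and a change within a cell type cannot be told apart.

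Imprinting is set in the germ line by DNA methylation at control regions, each of which governs a cluster of genes, often through a long noncoding RNA transcribed from a single parental copy. Several silent copies also carry H3K27me3, and zinc finger proteins such as ZFP57 and ZFP445 keep the methylation in place after fertilisation. In the pancreas, imprinted genes are known for effects on growth and on insulin secretion: Igf2 and Igf2r set growth factor supply, Grb10 restrains insulin receptor signalling, and PLAGL1 is tied to transient neonatal diabetes in humans. The deposited counts are not split by parental copy. Both marks at a promoter may therefore lie on different copies or in different cells, which cannot be told apart.

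Promoter sequences are shown for 4 genes that stand for the 3 chromatin states described below: Gnas and Grb10, whose promoter windows held both marks, Ascl2, whose window held H3K27me3 alone, and Cd81, whose window held H3K27ac alone. Each is the 250 bases before the upstream-most start in RefSeq, 5′ to 3′ in the direction of transcription, with every CG dinucleotide in capitals. They are taken from GRCm38.p6, at chr2:174284070-174284319 (plus strand), chr11:12037421-12037670 (minus strand), chr7:142969265-142969514 (minus strand) and chr7:143052500-143052749 (plus strand). The region coordinates given further on are those of the deposited tables, in GRCm39, and were not converted. The states are those of the windows and not of the bases shown. The H3K27ac regions of Gnas and Grb10 began 343 and 680 bp after the annotated start. The gene length in the tables equals that of RefSeq for Gnas (62425 bp) and is near it for Ascl2 (2436 against 2443 bp) and Cd81 (15196 against 15181 bp), while for Grb10 (108176 against 106930 bp) the start used in the tables may differ.
Gnas: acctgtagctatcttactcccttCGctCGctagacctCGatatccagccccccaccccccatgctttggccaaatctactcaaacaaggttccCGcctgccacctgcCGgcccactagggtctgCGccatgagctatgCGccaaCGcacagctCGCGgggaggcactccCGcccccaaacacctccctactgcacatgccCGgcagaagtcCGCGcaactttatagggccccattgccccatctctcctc
Grb10: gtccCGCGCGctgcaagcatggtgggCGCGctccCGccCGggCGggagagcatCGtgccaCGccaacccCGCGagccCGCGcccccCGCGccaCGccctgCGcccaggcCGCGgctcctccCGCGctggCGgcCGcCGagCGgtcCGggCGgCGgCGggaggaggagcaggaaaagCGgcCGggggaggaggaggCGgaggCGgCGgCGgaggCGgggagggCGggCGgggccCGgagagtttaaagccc
Ascl2: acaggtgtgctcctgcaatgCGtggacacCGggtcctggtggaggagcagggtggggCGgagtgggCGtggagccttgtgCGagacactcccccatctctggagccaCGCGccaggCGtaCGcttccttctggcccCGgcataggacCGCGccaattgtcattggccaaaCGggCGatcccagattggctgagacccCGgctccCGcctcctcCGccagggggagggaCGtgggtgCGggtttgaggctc
Cd81: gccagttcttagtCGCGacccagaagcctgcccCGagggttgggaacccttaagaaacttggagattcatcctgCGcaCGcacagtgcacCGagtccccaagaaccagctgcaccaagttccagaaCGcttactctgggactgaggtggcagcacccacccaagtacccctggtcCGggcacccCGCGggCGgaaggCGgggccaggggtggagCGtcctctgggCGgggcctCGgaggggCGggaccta

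These stretches held 14, 40, 19 and 16 CG dinucleotides, against a median of 6 over the 32851 promoters of the table and of 10 over the 47 promoters of the 33 imprinted genes found in it. The core letters TGCCGC of the ZFP57 motif, searched on both strands over the same 250 bases, occurred in 14.9% of the 47 promoters and in 8.7% of all promoters. TAAT, the core letters bound by many homeodomain proteins, occurred in 44.7% and 54.9%, and CTAATG, which contains TAAT, in 4.3% and 6.4%. None of these 3 motifs occurs in the 4 sequences shown.

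The regions held between 681047 and 1815511 counts per library for H3K27ac and between 1202276 and 2276887 for H3K27me3. Control replicate 2 of H3K27ac stood apart: its log2 CPM correlated with the other 3 libraries at r = 0.473 to 0.517, against 0.696 to 0.738 among those 3 (across regions, which are not independent). Values without it are therefore given for many of the regions that it moved, though not for all. At Isl1 itself, the promoter region held 63.3 and 42.8 CPM of H3K27ac (counts scaled to a common library size with TMM factors) in the Control libraries and 45.6 and 45.7 in the Isl1CKO libraries. Of the 7 H3K27ac regions of Isl1, the genotypes did not overlap at 1, beside 37.5% of all tested H3K27ac regions. That region lay in an intron, 5085 bp into the gene. It held 19.3 and 21.9 CPM in Control and 7.61 and 2.81 in Isl1CKO. Its log2 fold change was -2.05 (SE 1.03, edgeR quasi-likelihood adjusted p = 0.86). A histone mark does not read the deleted exon itself. Of 14 endocrine marker genes, 11 had an H3K27ac region, with none at Ins2, Gcg or Sst, and an H3K27ac region lay at 4 of 6 ductal and 2 of 9 acinar markers, at 1 of 6 endothelial and 1 of 7 mesenchymal ones, and at 2 of 6 immune and 2 of 5 glial ones.

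Repressive chromatin was common at the imprinted promoters. A region of H3K27me3 overlapped 12 of the 30 promoter windows of imprinted genes (40.0%), whereas such a region overlapped 15.8% of all 22332 windows, which span a median of 6000 bp. H3K27ac overlapped 13 of the 30 windows (43.3%) and 45.2% of all windows. The windows of Gnas, Grb10 and Sgce held both marks, a share of 10.0% beside 6.44% of all windows. The number of windows with H3K27me3 was 12 under each of 3 stricter rules (regions above the median Control CPM, or with at least 10 counts in either Control library), where 13.1% to 14.6% of all windows qualified. Counting only regions above the median Control CPM left 9 of the 30 windows with H3K27ac, beside 35.1% of all windows. It left 1 window with both marks, beside 2.75% of all windows. These shares describe a list chosen by name, and the difference was not tested. Of 34 windows of other imprinted genes outside the 39, 18 held H3K27me3 (52.9%).

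The windows with H3K27me3 alone were those of Dlk1, Dio3, Igf2, Ascl2, Phlda2, Magel2, Peg12, Plagl1 and Mkrn3. Those with H3K27ac alone were Cd81, Tssc4, Kcnq1ot1, Peg3, Zim1, Igf2r, Ppp1r9a, Inpp5f, Nnat and Ndn. Neither mark overlapped the windows of Snrpn, Mest, Impact, Nap1l5, Blcap, Mcts2, Rtl1 and Slc22a18 (26.7%, against 45.4% of all windows). Neighbours in a cluster differed in state: within the Kcnq1ot1 cluster, Ascl2 and Phlda2 held H3K27me3 and Cd81, Tssc4 and Kcnq1ot1 held H3K27ac, and in the Snrpn cluster Magel2 and Peg12 differed from Ndn. Of the windows with H3K27me3, that of Mkrn3, a makorin RING finger gene, was touched over 16 bp only, by a region that the tables name for Gm32061.

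**Figure D1:**
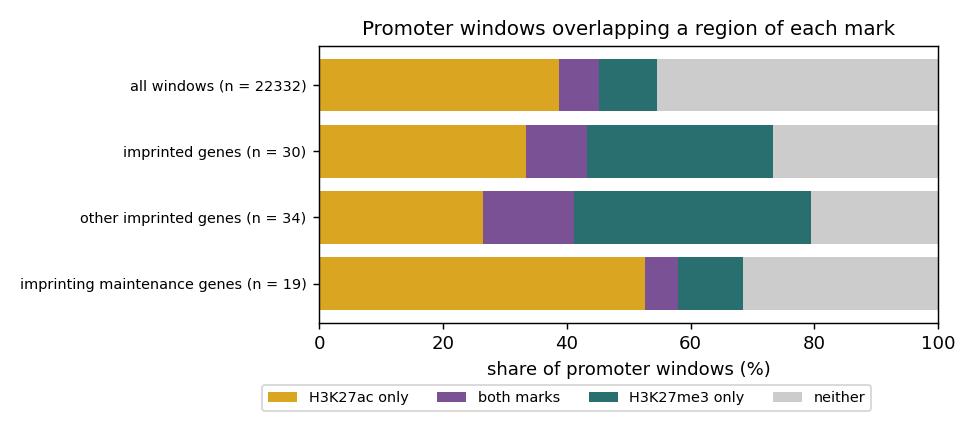
Share of promoter windows (%, horizontal axis) that overlapped an H3K27ac region only, an H3K27me3 region only, both or neither, for all 22332 windows, the 30 of the imprinted genes, 34 of other imprinted genes and 19 of genes that maintain imprints. The part with H3K27me3 only is 30.0% of the imprinted gene windows and 9.35% of all windows.

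Among the genes with a region of their own, H3K27me3 was densest at the promoters of Ascl2, Dlk1 and Phlda2. Levels of different genes are compared as Control CPM per kb of region. Ascl2, a basic helix-loop-helix factor of the trophoblast, held 43.8 CPM per kb, Dlk1, a transmembrane relative of the Notch ligands, 40.5, and Phlda2, a restrainer of placental growth, 38.4. These densities exceeded those of 87.7%, 85.7% and 84.1% of tested promoter regions. Magel2, a MAGE family gene of the Snrpn cluster, followed at 29.2 CPM per kb, then Plagl1 at 22.5, Grb10 at 22.3, Peg12 at 21.5, Gnas at 20.9 and Sgce, which encodes epsilon-sarcoglycan, at 19.2. These 9 regions, each the promoter region with most counts of its gene, lay above the median of 15.5 CPM per kb over tested H3K27me3 promoter regions. A second Gnas promoter region, described below, lay far under it at 0.854 CPM per kb.

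The domain at Ascl2 (chr7:142518156-142526562, 8407 bp) was wider than 97.3% of tested H3K27me3 regions, and that at the Grb10 promoter (chr11:11984599-11991876, 7278 bp) wider than 96.2%. Ascl2 held 387 and 350 CPM in the Control libraries and 339 and 383 in the Isl1CKO libraries. Phlda2 held 221 and 183 CPM in Control and 160 and 228 in Isl1CKO. The genotypes overlapped at both genes. At Magel2 the Control libraries held 97.8 and 53.5 CPM and the Isl1CKO libraries 66.2 and 61.6, and at Peg12, whose product binds the kinase GSK3, they held 63.4 and 39.9 against 56.8 and 52.7. In both cases the Isl1CKO libraries lay between the Control libraries. The Dio3 region farther downstream (chr12:110252754-110254337) held 18.5 and 24.1 CPM in Control and 15.8 and 25.5 in Isl1CKO.

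A further pair of domains reached imprinted promoters although the tables name them for neighbouring genes, and they were picked out after their values were seen. The window of Dio3, which encodes the deiodinase that inactivates thyroid hormone, lay wholly inside a 16451 bp domain named for Mir1247 (chr12:110236166-110252616) with 47.2 CPM per kb in Control. It held 783 and 770 CPM in the Control libraries and 826 and 794 in the Isl1CKO libraries, a difference of 0.06 ± 0.13 on the log2 scale (SE). The window of Igf2, the insulin-like growth factor, shared 4426 bp with an 8884 bp domain named for Igf2os (chr7:142213096-142221979), which at 63.1 CPM per kb was denser than 95.5% of promoter regions. That domain held 588 and 533 CPM in Control and 468 and 439 in Isl1CKO. The Control libraries both lay above the Isl1CKO libraries there (log2 fold change -0.31, SE 0.16, edgeR quasi-likelihood adjusted p = 1.00).

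**Figure D2:**
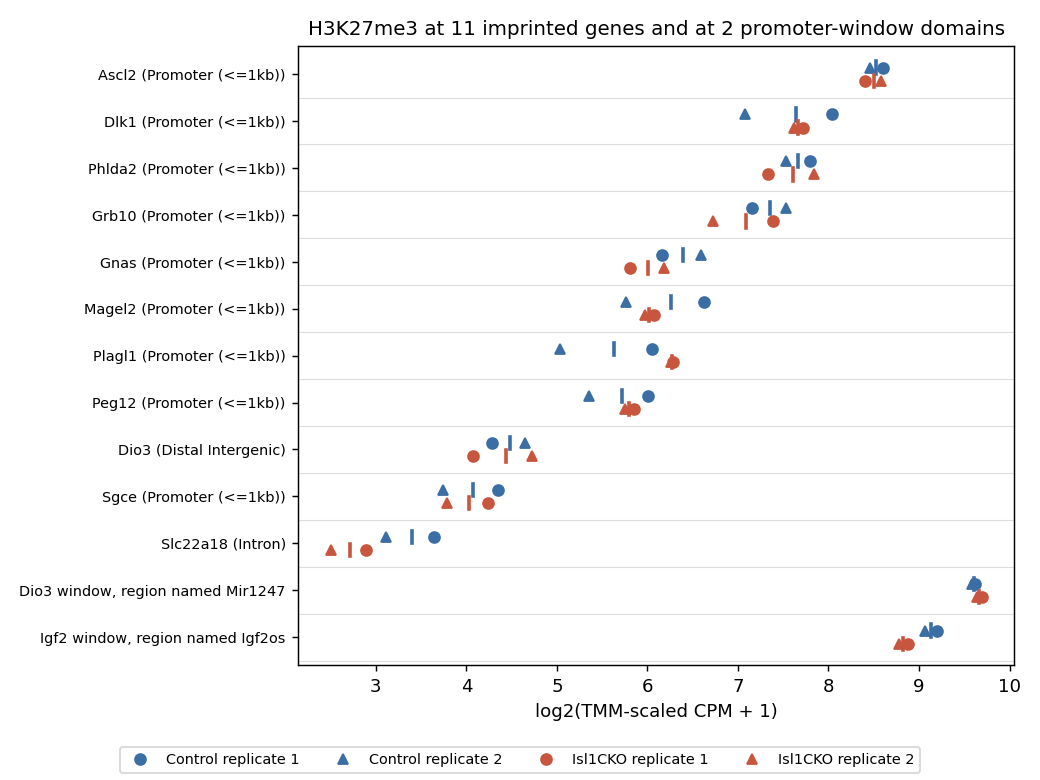
H3K27me3 per library, as log2(TMM-scaled CPM + 1), at the representative region of each of the 11 imprinted genes with a region and at the domains over the Dio3 and Igf2 windows, with bars at the log2 of each group's mean CPM + 1. Ascl2, Dlk1 and Phlda2 lead the genes' own regions, and the Control libraries of Dlk1 (263 and 135 CPM) lie farther apart than its Isl1CKO libraries (210 and 195 CPM).

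Among the promoter regions that represented these genes, H3K27ac per kb was highest at Cd81 and lowest at Nnat. Cd81, a tetraspanin of the cell surface, held 47.7 Control CPM per kb, more than 91.1% of tested H3K27ac promoter regions. Zim1 and Tssc4, a spliceosome assembly factor, each held 36.1 CPM per kb, Ppp1r9a, the actin-binding neurabin, 35.5, Inpp5f, a phosphoinositide phosphatase, 35.4, Sgce 34.2 (the Control libraries of Zim1 and Sgce lay far apart), and Kcnq1ot1, the noncoding RNA that silences its cluster in cis, 32.8. Of the 15 promoter regions that represented a gene, 9 lay above the promoter median of 26.4 CPM per kb. Peg3, a zinc finger gene expressed from the paternal copy, lay low at 14.8 CPM per kb over a wide region of 3207 bp, as did Nnat, an endoplasmic reticulum proteolipid known from beta cells, at 10.3. Regions named for Gm56190 also reached the Nnat window, at 9.95 and 28.7 Control CPM per kb. The Control libraries of the denser Gm56190 region lay far apart, at 6.95 and 32.9 CPM.

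At Kcnq1ot1 the 4 libraries lay close together: its promoter region (chr7:142848595-142850783) held 70.2 and 73.4 CPM in Control and 76.1 and 75.9 in Isl1CKO. Tssc4 held 137 and 105 CPM in Control and 113 and 138 in Isl1CKO, and Inpp5f 54.0 and 57.6 against 63.9 and 52.7. The groups overlapped at Tssc4 and Inpp5f and differed by 0.08 ± 0.39 (log2, SE) at Kcnq1ot1. Ppp1r9a held 72.6 and 37.8 CPM in Control and 71.5 and 66.1 in Isl1CKO. There, Control replicate 2, the library that stood apart, was the low value, and without it the log2 fold change was -0.09.

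**Figure D3:**
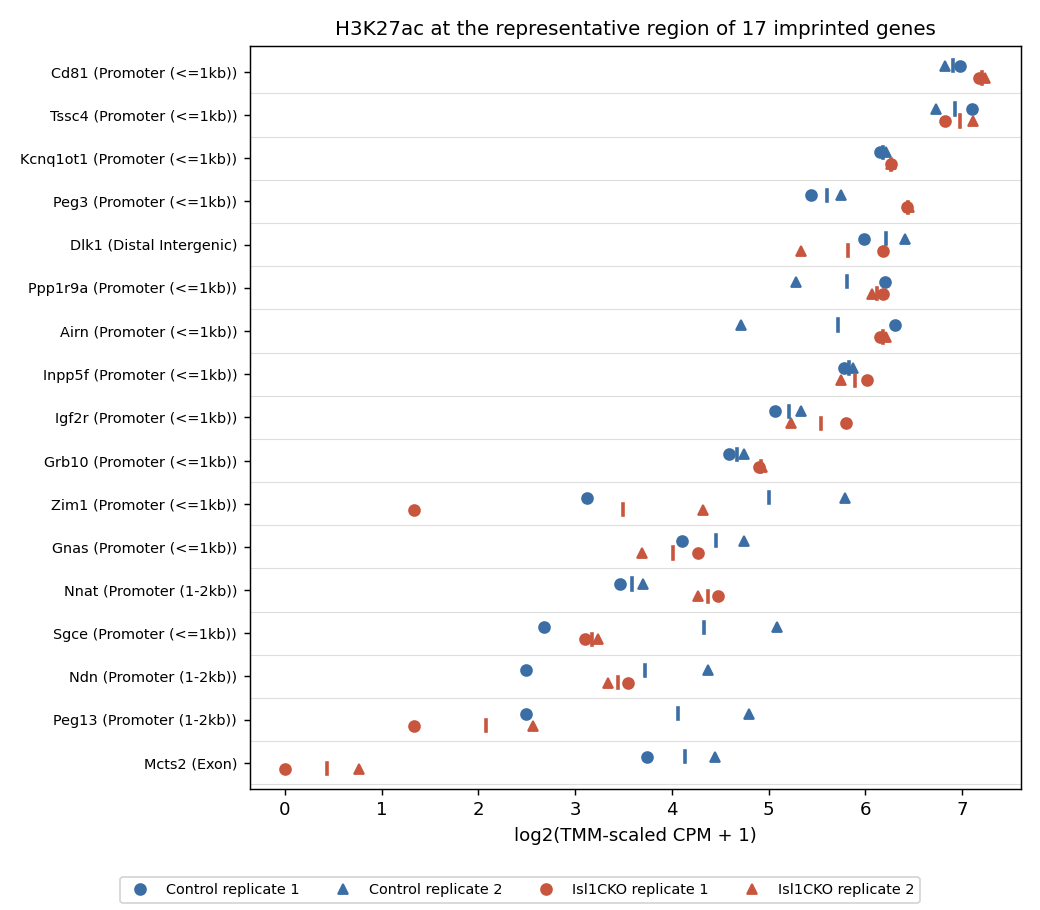
H3K27ac per library, as log2(TMM-scaled CPM + 1), at the representative region of each of the 17 imprinted genes with a region, ordered by mean CPM, with bars at the log2 of each group's mean CPM + 1. Cd81 and Tssc4 lead, Peg3 shows both Isl1CKO libraries (85.2 and 86.4 CPM) above both Control libraries (42.5 and 52.6 CPM), and the Control libraries of Zim1 (7.72 and 54.3 CPM) lie far apart.

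Both marks had a region at Dlk1, Gnas, Grb10 and Sgce. Of the 40 H3K27ac regions of imprinted genes, 6 (15.0%) overlapped an H3K27me3 region, all in these 4 genes and each wholly inside it, beside 6.86% of all H3K27ac regions. The difference was not tested. At Gnas, which encodes the stimulatory G protein alpha subunit and several transcripts expressed from a single parental copy, an H3K27ac region of 823 bp sat in an H3K27me3 domain of 3974 bp over the start shown above (chr2:174125989-174129962). The H3K27ac region held 16.2 and 25.8 CPM in Control and 18.3 and 11.9 in Isl1CKO, and the H3K27me3 domain 70.5 and 95.7 against 55.1 and 71.8. The genotypes overlapped for both marks.

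At Grb10, an H3K27ac region 680 bp into the gene (chr11:11986572-11988003) lay in the wide promoter domain of H3K27me3. It held 23.2 and 25.8 CPM in Control and 28.9 and 29.5 in Isl1CKO, while the domain held 142 and 183 CPM of H3K27me3 in Control and 166 and 105 in Isl1CKO. A smaller H3K27ac region in an intron, 6509 bp from the start (chr11:11981549-11982174), held 10.0 and 1.64 CPM in Control and 24.3 and 22.5 in Isl1CKO. Both Isl1CKO libraries exceeded both Control libraries there, by 2.02 ± 1.01 on the log2 scale (edgeR quasi-likelihood adjusted p = 0.86), on 13 and 3 counts against 16 and 32. Leaving out Control replicate 2 gave 1.20, and leaving out Control replicate 1 gave 3.75. The H3K27me3 region around it held 52.9 and 63.4 CPM in Control and 56.0 and 64.2 in Isl1CKO.

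At Sgce the H3K27ac promoter region held 5.40 and 32.9 CPM in Control and 7.61 and 8.43 in Isl1CKO. The high value was again Control replicate 2, and leaving it out turned the log2 fold change from -1.25 to 0.56. H3K27me3 at the same promoter held 19.4 and 12.3 CPM in Control and 17.9 and 12.8 in Isl1CKO.

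Around Dlk1, whose promoter (chr12:109417993-109422889) carried H3K27me3 without H3K27ac, acetylation lay upstream. The strongest H3K27ac region, ending 9906 bp before the start (chr12:109405298-109408843, 3546 bp), held 62.5 and 83.9 CPM in Control and 71.5 and 39.4 in Isl1CKO and overlapped no H3K27me3 region. A nearer region, 6424 bp before the start (chr12:109411150-109412325), held 18.5 and 35.1 CPM in Control and 9.13 and 8.43 in Isl1CKO. The genotypes did not overlap there (log2 fold change -1.61, SE 0.80, edgeR quasi-likelihood adjusted p = 0.86), and the change was -1.08 when Control replicate 2 was left out and -1.99 when Control replicate 1 was. The third, 15875 bp upstream, held 17.8 and 8.77 CPM in Control and 3.04 and 9.14 in Isl1CKO, where the groups overlapped.

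At the H3K27me3 regions of Dlk1, the Control libraries differed from each other. All 7 regions held more in Control replicate 1 than in Control replicate 2, each by 1.5 times or more and by a median of 2.59 times, whereas 32.2% of all tested H3K27me3 regions differed that far in that direction. The regions belong to the same gene and are not independent. Some held few counts in Control replicate 2 (0, 1 and 4 at the lowest). The promoter domain held 263 and 135 CPM in the Control libraries and 210 and 195 in the Isl1CKO libraries, which lay between them. The region around the H3K27ac peak at 6424 bp held 30.0 and 0.587 CPM in Control and 10.7 and 10.2 in Isl1CKO.

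**Figure D4:**
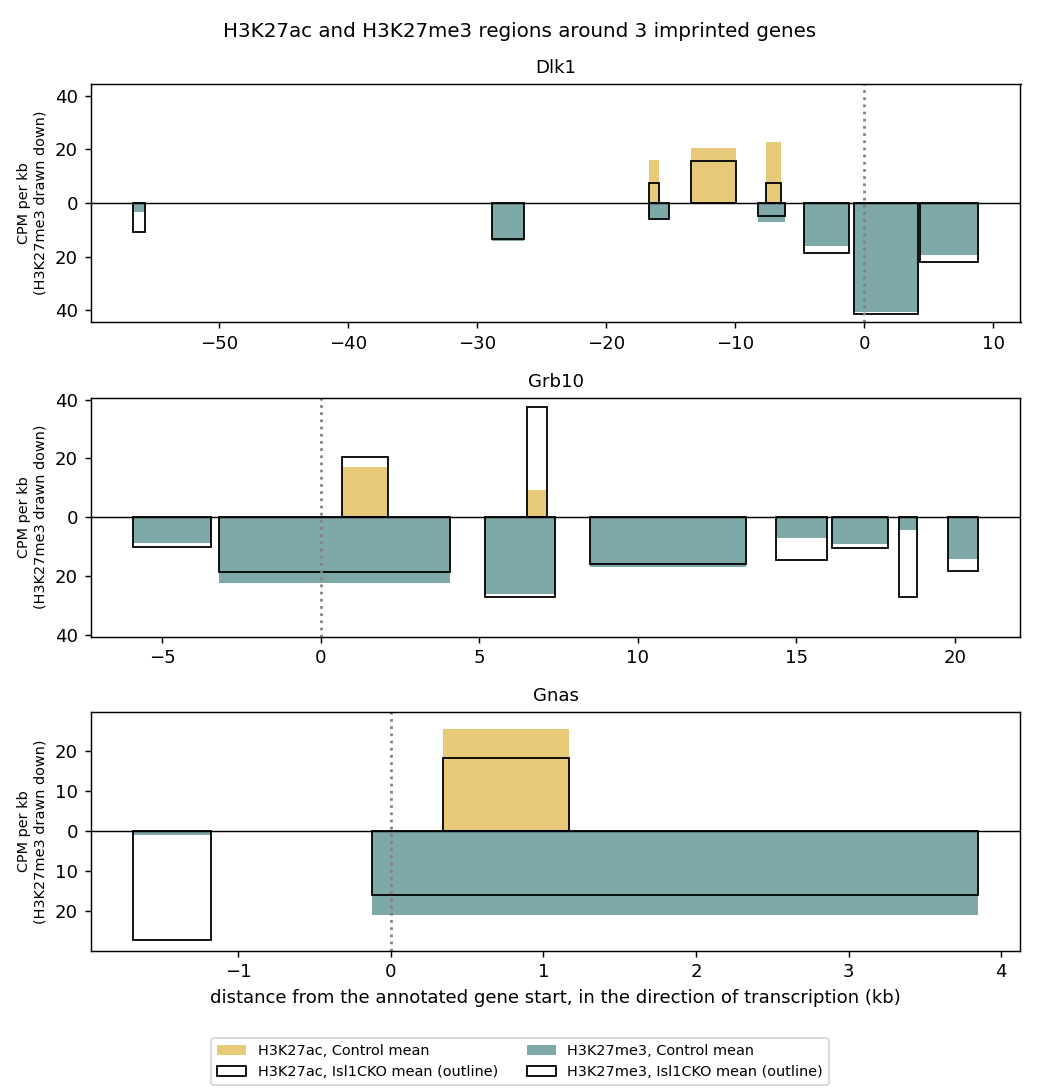
H3K27ac (upward) and H3K27me3 (downward) regions of Dlk1, Grb10 and Gnas as mean CPM per kb of region, against distance from the annotated gene start in kb in the direction of transcription, filled for Control and outlined for Isl1CKO. H3K27ac lies upstream of the Dlk1 start and just downstream of the Grb10 and Gnas starts, and the Gnas H3K27me3 region 1175 bp upstream has almost no Control signal.

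The genotypes were compared region by region. No region of either mark passed an adjusted p of 0.05 in edgeR's quasi-likelihood test (0.0% of 30036 tested H3K27ac regions and 0.0% of 19434 tested H3K27me3 regions), and so no imprinted gene was called. The smallest adjusted p over all regions was 0.734 for H3K27ac and 0.835 for H3K27me3. At an unadjusted p under 0.05 there were 1751 H3K27ac regions (5.83%) and 843 H3K27me3 regions (4.34%), and 1 region of the imprinted genes in each mark. DESeq2 called 29 H3K27ac regions (0.109%) and 130 H3K27me3 regions (0.673%), and none of the imprinted genes. It gave an adjusted p to only 34 of the 40 H3K27ac regions of imprinted genes. The Mcts2 region and the Peg3 exon region, described below, were among those without one. Without Control replicate 1, edgeR called 900 H3K27ac regions and without Control replicate 2 it called 15, again none of the imprinted genes, whose smallest adjusted p was 0.0712 and 0.735.

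Over the 16 tested representative H3K27ac regions, 10 had a fold change above 0 and 6 below, with a median of 0.07 (log2). For the representative regions of all genes, 7753 of 15900 lay below and the median was 0.02. Of all tested regions, 51.4% lay below and the median was -0.03. Both Isl1CKO libraries lay above both Control libraries at 5 of the 16 regions and below at 1, a share of 37.5% that equals the 37.5% over all tested regions. Over all 39 tested H3K27ac regions of imprinted genes, 9 lay above (18.1% of all regions did) and 9 below (19.4%), and the median was -0.40, or -0.03 without Control replicate 2. For H3K27me3, 3 of 11 representative regions had a fold change above 0 and 8 below. Over the representative regions of all genes, 4361 of 7875 lay below. The median was -0.05, beside -0.08 over the representative regions of all genes and 0.05 over all regions. Of the 29 H3K27me3 regions, 5 lay above (18.7% of all) and 1 below (16.7%). The Peg13 promoter region did not pass the filter on low counts.

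**Figure D5:**
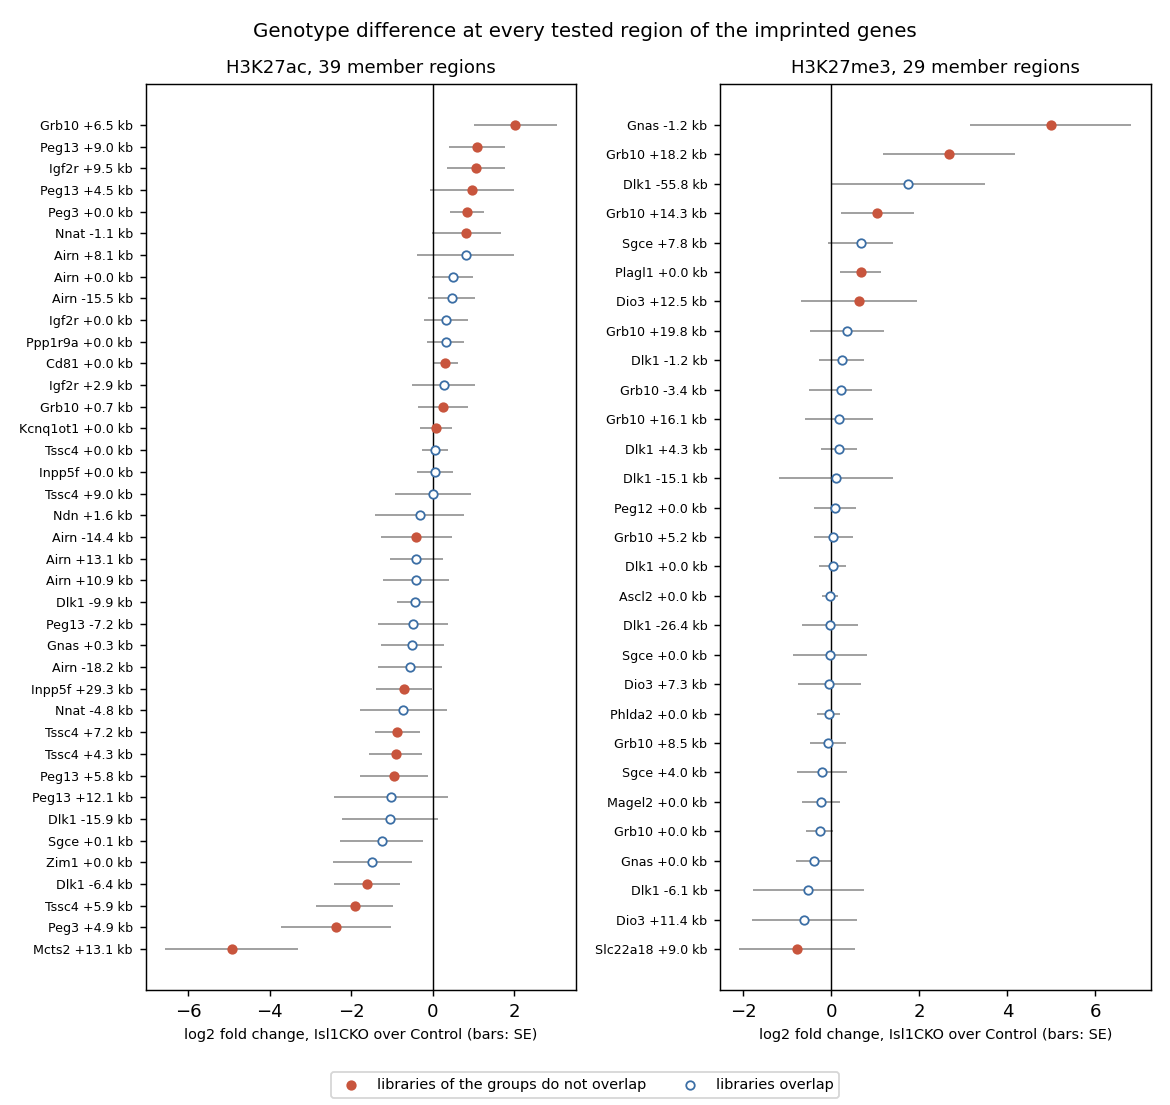
Log2 fold change of Isl1CKO over Control with its SE for the 39 tested H3K27ac and 29 tested H3K27me3 regions of imprinted genes, named by gene and distance from its start in kb; filled points mark regions whose libraries do not overlap between genotypes (18 and 6). Most intervals are wide, and the Mcts2 region for H3K27ac and the Gnas region upstream of its start for H3K27me3 lie farthest from 0.

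The members farthest from no change, which are also those with an unadjusted p under 0.05, were regions with few reads. The H3K27ac region named for Mcts2, a retrogene copy that lies within H13, sits 13119 bp from the Mcts2 start in an exon of H13 (chr2:152542074-152542785). The Control libraries had 16 and 38 counts there and the Isl1CKO libraries 0 and 1. The ratio of summed counts, scaled for library size, was 0.0278 (95% exact interval 0.000691 to 0.161, counting error only), with an adjusted p of 0.85 in edgeR's quasi-likelihood test. At Gnas, an H3K27me3 region of 516 bp that ends 1175 bp before the start (chr2:174124423-174124938) had 1 and 0 counts in the Control libraries and 19 and 47 in those of Isl1CKO. That ratio was 39.9 (interval 6.92 to 1600), with an adjusted p of 1.00 in edgeR's test. The genotypes did not overlap at either region, so leaving out a single library could not reverse the direction.

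In the Peg3 cluster, the Peg3 promoter region (chr7:6730692-6733898) held 42.5 and 52.6 CPM of H3K27ac in Control and 85.2 and 86.4 in Isl1CKO. Both Isl1CKO libraries lay above both Control libraries, by 0.85 ± 0.41 on the log2 scale (edgeR quasi-likelihood adjusted p = 0.86), and the difference stayed between 0.71 and 1.01 when single libraries were left out. An exon region 4898 bp into the gene was lower in both Isl1CKO libraries, with 9.26 and 22.5 CPM in Control and 6.09 and 0.703 in Isl1CKO (log2 fold change -2.38, SE 1.35, adjusted p = 0.88 in the same test). It was -4.35 without Isl1CKO replicate 1, -2.93 without Control replicate 1, -1.62 without Control replicate 2 and -1.39 without Isl1CKO replicate 2. Zim1, a neighbouring zinc finger gene expressed from the maternal copy, held 7.72 and 54.3 CPM in Control and 1.52 and 18.97 in Isl1CKO. Within-group spread at Zim1 exceeded the difference between the genotypes, and without Control replicate 2 its log2 fold change was 0.51 in place of -1.48.

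In the Igf2r cluster, H3K27ac lay over the promoters of Igf2r, the receptor that clears IGF2, and of Airn, the antisense RNA that silences Igf2r on the paternal copy. The Igf2r promoter region held 32.4 and 39.5 CPM in Control and 54.8 and 36.5 in Isl1CKO. The Airn promoter region, which lies inside Igf2r, held 78.0 and 25.2 CPM in Control and 70.0 and 73.1 in Isl1CKO, and without Control replicate 2, the low library, its fold change went from 0.49 to -0.13. The genotypes overlapped at both promoters. An Igf2r intron region 9505 bp from the start (chr17:12977884-12979046) held 23.2 and 9.32 CPM in Control and 41.1 and 26.7 in Isl1CKO, both above, by 1.06 ± 0.70 (adjusted p = 0.90, edgeR quasi-likelihood), or 0.52 when Control replicate 2 was left out and 1.83 when Control replicate 1 was. The 6 other Airn regions, 3 of them in exons of Igf2r, ranged from -0.57 to 0.81. The genotypes did not overlap at 1 of these 6 (-0.40), beside 37.5% of all tested H3K27ac regions. No H3K27me3 region was named for either gene.

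In the Kcnq1ot1 cluster, the Cd81 promoter region (chr7:142606125-142608611) held 125 and 112 CPM of H3K27ac in Control and 143 and 150 in Isl1CKO, both above, by 0.31 ± 0.31 (log2). Downstream of Tssc4, within the neighbouring Trpm5 gene, 3 of 4 H3K27ac regions were lower in both Isl1CKO libraries than in either Control library. These regions lie close together and are not independent, and 19.4% of all tested H3K27ac regions lay below in this way. The region 5935 bp from the Tssc4 start (chr7:142628921-142629766) held 14.7 and 29.6 CPM in Control and 6.09 and 5.62 in Isl1CKO (log2 fold change -1.91, SE 0.95, edgeR quasi-likelihood adjusted p = 0.86), or -1.32 without Control replicate 2. Its neighbours at 4305 and 7181 bp had log2 fold changes of -0.91 and -0.87, while the Tssc4 promoter (0.06 ± 0.33) and the region at 9044 bp overlapped. Slc22a18, a transporter gene, had a weak H3K27me3 region in an intron, with 11.5 and 7.64 CPM in Control and 6.41 and 4.68 in Isl1CKO, on 11 to 15 counts per library.

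Among the single genes, Plagl1, a zinc finger transcription factor, had both Isl1CKO libraries above both Control libraries for H3K27me3 at its promoter (chr10:12935567-12937716). It held 65.2 and 31.7 CPM in Control and 76.9 and 75.7 in Isl1CKO, a difference of 0.66 ± 0.47 (log2, adjusted p = 1.00 in edgeR's test), and 0.23 without Control replicate 2 or 1.26 without Control replicate 1. Farther into Grb10, 2 H3K27me3 intron regions were also higher in both Isl1CKO libraries. The region at 18224 bp held 5.29 and 0 CPM in Control and 12.8 and 19.6 in Isl1CKO, and the region at 14343 bp 12.3 and 10.6 against 33.8 and 13.6. Both rest on few Control counts, 6 and 0 in the first and 14 and 18 in the second. The log2 difference was 2.67 in the first, or 1.60 without Control replicate 2, and 1.05 in the second, or 0.24 without Isl1CKO replicate 1. The other 6 Grb10 H3K27me3 regions ranged from -0.27 to 0.36 and overlapped between the genotypes. Of all tested H3K27me3 regions, 18.7% were higher in both Isl1CKO libraries than in either Control library.

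Regions named for Peg13, a noncoding RNA within Trappc9, split in direction. Of its 5 tested H3K27ac regions, those at 9019 and 4464 bp had both Isl1CKO libraries above both Control libraries (1.08 and 0.97, log2). The region at 5831 bp had both below (-0.94). Of all tested H3K27ac regions, 18.1% lay above in this way and 19.4% below. The region at 9019 bp (chr15:72672027-72673154) held 20.1 and 11.5 CPM in Control and 25.9 and 40.1 in Isl1CKO. Near Nnat, the region 1129 bp before the start held 10.0 and 12.1 CPM in Control and 21.3 and 18.3 in Isl1CKO (0.83 ± 0.85), on 13 to 26 counts per library. Ndn, the MAGE family gene necdin, held 4.63 and 19.7 CPM in Control and 10.7 and 9.14 in Isl1CKO, with overlap. Without Control replicate 2, the log2 fold change at Ndn was 1.06 in place of -0.32. The smallest adjusted p among these regions was 0.89 in edgeR's test.

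ISL1 values at the imprinted promoters ran from 0 to 4 at E14.5 and were 0 at P9. The tables give a whole number per promoter window with no unit, as 1 column for both E14.5 libraries and 1 for the P9 library, so they carry no replicate error and their depth is unknown. At E14.5 the value was at least 1 in 19 of the 30 windows (63.3%), beside 37.7% of all windows, and the difference was not tested. Cd81 and Kcnq1ot1 had a value of 4, above 95.7% of all windows, and Gnas and Ascl2 had 3. Dio3, Igf2, Peg3, Ppp1r9a and Tssc4 had 2, another 10 genes had 1, and 11 had 0, among them Dlk1, Igf2r, Snrpn and Mest. None reached 5, as 2.06% of all windows did, and the highest value over all windows was 133.

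Windows with either mark held more E14.5 values of at least 1 than windows with neither, in the imprinted genes as over the whole table. The value was at least 1 in 8 of 10 imprinted gene windows with H3K27ac alone, in all 3 with both marks, in 6 of 9 with H3K27me3 alone and in 2 of 8 with neither. Over all windows these shares were 61.7%, 68.3%, 50.6% and 10.3%. At P9 the value was 0 in all 30 windows of imprinted genes, while 8.86% of all windows had a value of at least 1. The stages were not compared, since their columns come from different numbers of libraries.

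In the authors' deposited table, which applied other library scaling and a likelihood ratio statistic, 12 of the 40 H3K27ac regions of imprinted genes were higher in Isl1CKO at an adjusted p under 0.05 and 5 lower, beside 27.8% and 9.25% of all H3K27ac regions. For H3K27me3 the authors' deposited table called 3 of 29 higher and 5 lower, beside 9.17% and 29.6% of all regions. The authors' deposited table gave Peg3 promoter H3K27ac a log2 fold change of 1.47 (adjusted p = 0.00024) and the Grb10 intron H3K27ac region 2.60 (6e-06). In the authors' deposited table the Mcts2 H3K27ac region was at -4.55 (adjusted p = 9.2e-06), the Peg3 exon region at -2.22 (0.0037) and the Gnas H3K27me3 region upstream of its start at 4.65 (1.8e-06).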

How the data were processed

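CUT&Tag regions of H3K27ac and H3K27me3 came with raw counts per region and library, as deposited by the authors. The deposited tables also hold the authors' log2 fold changes, their p-values and adjusted p-values, and a likelihood ratio score. The ISL1 table gives a deposited score per promoter window, of unstated unit. Bowtie2 2.3.5.1, Picard 2.27.4, MACS2 2.2.6, ChIPseeker 1.38.0, edgeR 4.0.16 and the build GRCm39 are named in the submitters' processing notes, without roles. Chromosome numbers in the tables follow the alphabetical order of chromosome names and were relabelled. Every region listed sums to at least 50 counts.

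Here counts were filtered by filterByExpr (1443 H3K27ac and 652 H3K27me3 regions removed), scaled by TMM and tested with edgeR 4.0.16 (R 4.3.3, quasi-likelihood, Isl1CKO against Control, Benjamini-Hochberg over all regions, threshold 0.05). The fit was tested on simulated data. Alternatives were DESeq2 1.42.0, other scalings, no filter, a replicate block and leaving out each library. A leave-one-out fit assumes that the lone library varies like the other group. CPM divides counts by the TMM-scaled library size. The labels call the 2 libraries of a group independent pools.

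For each mark, the promoter region with most counts on average stands for a gene, or, where it has none, its region with most counts. Named regions were these above the median CPM, those with an unadjusted p under 0.05 or a non-overlapping difference of 2-fold or more, and H3K27ac regions overlapping H3K27me3. Other regions were chosen after their values were seen. The members and lists were chosen with earlier results of these data known. Sequences are from RefSeq tables of GRCm38.p6, in which 33 of the 39 genes were found.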

Additional observations from a re-analysis of the deposited data

How the results depend on the processing

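No imprinted gene region was called under any of the 11 alternatives run for each mark. DESeq2 gave no adjusted p to some of the H3K27ac regions, that of Mcts2 among them. Of 363 fold changes of named regions under these alternatives, 330 kept their direction and 33 reversed, and the cause was not tested. Some regions were named because the genotypes did not overlap, and leaving out a single library cannot reverse those. The alternatives also reuse the same libraries, so these counts do not measure replication. Scaling as implied by the authors' fold changes called 3 H3K27ac regions in all and moved the medians of the imprinted genes to 0.76 (H3K27ac) and -0.63 (H3K27me3), beside shifts of all regions to 0.61 and -0.51. It gave 0.41 for the Dlk1 region 9906 bp upstream and 0.28 for Gnas in H3K27ac, and -0.60 for Dlk1 and -0.51 for Peg12 in H3K27me3. With library totals only, the H3K27ac median was 0.014 and Inpp5f was at -0.005, and for H3K27me3 Dio3 was at 0.067, Ascl2 at 0.087, Phlda2 at 0.061 and Sgce at 0.077. A loess correction gave a median of -0.013 for H3K27ac, with Kcnq1ot1 at -0.087, Tssc4 at -0.13 and Inpp5f at -0.085, and for H3K27me3 Ascl2 at 0.15 and Phlda2 at 0.081. DESeq2 called 29 H3K27ac regions (21 higher) and 130 H3K27me3 regions (2 higher). With all regions of each gene the H3K27ac median was -0.40.

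Leaving out single libraries, edgeR called 0 to 900 H3K27ac regions, and the medians ranged from 0.050 to 0.17 for H3K27ac and from -0.19 to 0.082 for H3K27me3. The H3K27ac fold changes then ranged from -0.13 to 1.50 at Airn, -0.12 to 0.26 at Tssc4, -0.087 to 0.86 at Ppp1r9a, -2.01 to 0.56 at Sgce and -0.083 to 0.18 at Inpp5f. The H3K27me3 fold changes ranged from -0.12 to 0.048 at Ascl2, -0.34 to 0.17 at Phlda2, -0.34 to 0.31 at Sgce, -0.61 to 0.26 at Magel2, -0.43 to 0.25 at Dio3, -0.38 to 0.59 at Dlk1, -0.21 to 0.45 at Peg12 and -0.65 to 0.028 at Grb10.

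With the replicate block, 0 regions were called in either mark and the medians were 0.07 and -0.07. The labels name no shared litter or day for a number. The deviations of libraries with the same number correlated at 0.049 for H3K27ac and -0.014 for H3K27me3. Whether such libraries shared a litter or day was not tested. Counting only regions above the median Control CPM left 2 genes with regions of both marks in place of 4, and 1 window with both marks in place of 3; this alternative for windows, and those by counts in single libraries, were chosen after seeing the data. At a minimum ISL1 value of 5 or 10 there were 0 windows. The floor of 3 counts equals 4.56 CPM in the shallowest H3K27ac library and 1.28 CPM in the deepest H3K27me3 library, so small regions are limited by depth.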

Other observations

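Other imprinted genes were listed with earlier results of these data known. Of their 19 tested representative H3K27ac regions, 13 had a fold change below 0 and 6 above, with a median of -0.23 (log2), and the genotypes did not overlap at 8, a share of 42.1% beside 37.5% of all regions. Rasgrf1, a guanine nucleotide exchange factor for Ras, held, at its promoter, 34.7 and 47.7 CPM of H3K27ac in Control and 6.09 and 11.2 in Isl1CKO, a log2 fold change of -2.18 with an SE of 0.70 (edgeR quasi-likelihood adjusted p = 0.85). The H3K27me3 domain around it was lower as well, with 251 and 189 CPM in Control and 141 and 159 in Isl1CKO. Its log2 fold change was -0.55 (SE 0.26), and it was not called. Within Trappc9, the host gene of Peg13, an intronic H3K27ac region held 36.3 and 54.8 CPM in Control and 12.2 and 19.7 in Isl1CKO. The log2 fold change there was -1.48 (SE 0.62, edgeR quasi-likelihood adjusted p = 0.85). Kcnq1, the potassium channel gene that contains Kcnq1ot1, held at its promoter 45.5 and 70.7 CPM in Control and 113 and 92.8 in Isl1CKO, against the steady Kcnq1ot1 promoter. The Kcnq1 difference was 0.81 on the log2 scale (SE 0.39, edgeR quasi-likelihood adjusted p = 0.86).

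Of 20 listed genes that maintain imprints, 11 had an H3K27ac region and 3 an H3K27me3 region. Of their 19 promoter windows, 57.9% overlapped an H3K27ac region and 15.8% an H3K27me3 region, beside 45.2% and 15.8% of all windows. These shares were not tested. The H3K27ac regions of Zfp445 (30 and 0 counts) and Arid4a (23 and 1) were nearly empty in Control replicate 2. The median H3K27ac fold change of these genes was 0.42, or 0.01 without Control replicate 2. The genotypes did not overlap at 27.3% of their 11 tested H3K27ac regions, beside 37.5% of all tested H3K27ac regions. Ctcf, the insulator protein that reads the unmethylated H19 control region, held 70.2 and 63.6 CPM in Control and 107 and 141 in Isl1CKO (log2 fold change 0.89, SE 0.36, edgeR quasi-likelihood adjusted p = 0.85). Dppa3, a maternal factor that protects methylation in the early embryo, held 16.7 and 17.6 CPM of H3K27me3 in Control and 47.0 and 39.1 in Isl1CKO. Its log2 fold change was 1.32 (SE 0.61), and it was not called. Zfp57 held 26.4 and 17.6 CPM of H3K27me3 in Control and 37.2 and 9.35 in Isl1CKO, with overlap.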
